A study of Mus musculus with 4 samples.

Results

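The enzymes that take phosphate off tyrosine were examined in mouse embryo fibroblasts (MEFs) that lack stathmin. Members are the genes whose name in the array's own annotation begins with Ptpn, Ptpr, Dusp or Ptp4a, followed by the number or letter of a family member, with a pair of leukocyte genes left out by the rule. These are 60 genes with 126 probes, and 56 of the genes, with 104 probes, were bright enough to be tested, of 15962 genes and 27724 probes tested on the whole array. The rule used the names alone and no measured value, although members and classes were chosen with earlier results of these data known. RNA from cultured STMN1-/- MEFs and from STMN1+/+ MEFs, both of the C57BL/6 strain, was hybridised together on 4 Agilent 2-color arrays. The cells had been isolated from single mid-gestation embryos of heterozygous matings and passaged, and the knockout allele carries a neomycin cassette in the gene. No drug or other treatment was applied to either group. The labels do not say which cell line or RNA extract was on which array, so p-values measure the spread between these 4 arrays, which may be technical.

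Protein tyrosine phosphatases oppose tyrosine kinases. Receptor-type enzymes (Ptpr genes) cross the plasma membrane and carry extracellular domains that resemble adhesion molecules or bind matrix proteoglycans, while the cytosolic enzymes (Ptpn genes) are placed by SH2, FERM, PDZ or other domains. Dual-specificity phosphatases (Dusp genes) also act on serine and threonine. The MAP kinase phosphatases among them switch off ERK, JNK and p38 by removing both activating phosphates, and several are themselves induced by the kinases they inactivate. The atypical enzymes lack the kinase-binding domain of that group, and the PRL enzymes (Ptp4a genes) are small lipid-anchored phosphatases. In fibroblasts these enzymes act on growth factor receptors, Src-family kinases and focal adhesions.

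Each log2 ratio below is the log2 of the STMN1-/- signal over the STMN1+/+ signal of the same array, given with the SE of limma's fit over 4 arrays unless another number is stated. A probe was called where its adjusted p from limma (two-sided, Benjamini-Hochberg over all probes tested) was under 0.05, and a gene is read from its brightest probe. Replicates 1 and 2 carried STMN1-/- RNA in Cy3, and the dyes were swapped on replicates 3 and 4. The 2 probes of Stmn1 itself were lower in STMN1-/- MEFs, with log2 ratios of -2.16 ± 0.06 and -0.39 ± 0.07 (limma adjusted p = 0.000603 and 0.0182). The paper reports that the array's STMN1 probe also matches another genomic region. It states that STMN1 mRNA and protein were absent from these MEFs by qRT-PCR and western blot. The remaining signal of these probes is therefore not read here as remaining Stmn1 RNA. The paper does not say which of the 2 probes it means, and the source of the remaining signal of each was not tested. Log2 ratios of all probes correlated at 0.689 and 0.703 within each dye order and at 0.445 to 0.489 across dye orders. Signals were well above background for 24808 to 26029 probes per channel and array.

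Of the 104 member probes, 30 were lower in STMN1-/- MEFs and 6 were higher, which is 28.8% and 5.77%, beside 11.1% lower and 11.2% higher among all probes tested. Counted by gene, 16 of 56 members (28.6%) were lower and 3 (5.36%) were higher, beside 12.2% lower and 13.1% higher among all genes. The 3 genes that were higher are all receptor-type (Ptprs, Ptprr and Ptpra). Among the 9 MAP kinase phosphatases 6 were lower (66.7%) and none was higher, whereas 2 of the 15 cytosolic enzymes (13.3%) were lower and none was higher. The receptors divided into 4 lower and 3 higher of 17, the atypical enzymes into 3 lower of 11, and the PRL enzymes into 1 lower of 3. The PRL gene counted as lower, Ptp4a1, was called by a probe of uncertain placement. By probe, 7 of 13 MAP kinase phosphatase probes (53.8%) and 7 of 25 cytosolic ones (28%) were lower, beside 11.1% of all probes. Among the called probes, those of Dusp26 and the second ones of Ptprb and Ptprr were above background in 1 genotype only. Without all 7 such probes, 28 of 97 were lower and 5 higher, and 15 of 55 genes were lower and 3 higher. That exclusion was not applied to all probes or all genes, so these counts have no matching share beside them. With any 1 array left out, 13 to 17 member probes were lower (17, 15, 14 and 13 without replicates 1 to 4) and 3, 3, 3 and 5 were higher, while 4.83% to 5.52% of all probes were lower and 5.23% to 5.95% higher. No gene had probes called in opposite directions, and 7 of the 31 genes with several tested probes had all of them called the same way, Ptprb among them through such a dim probe. Ptprcap, a partner of a leukocyte receptor phosphatase that the name rule takes in, is no phosphatase and had a log2 ratio of -0.03 ± 0.06.

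**Figure D1:**
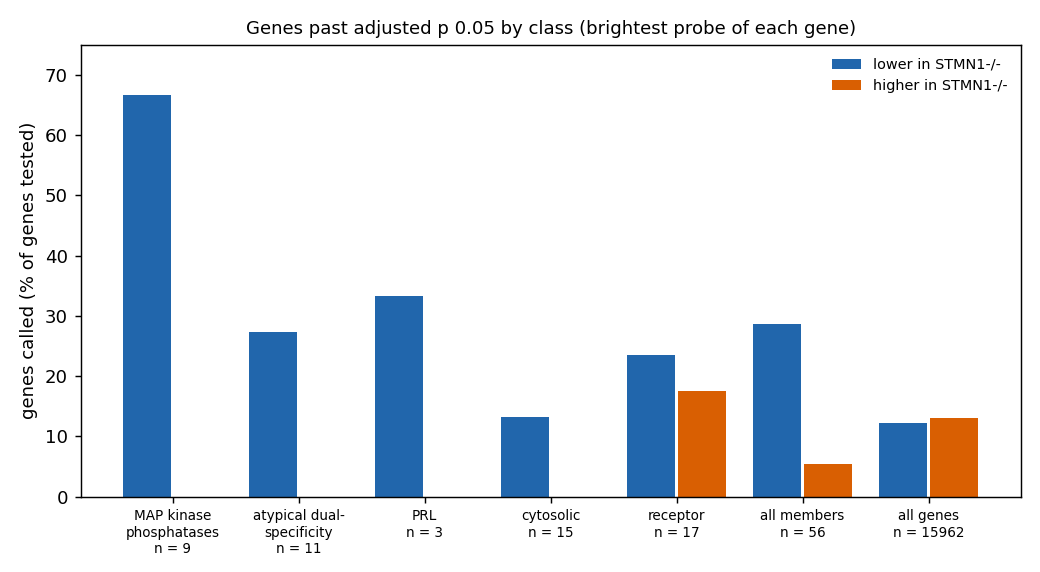
Bars give the percentage of genes tested that were lower (blue) or higher (orange) in STMN1-/- MEFs at an adjusted p under 0.05, for each class of phosphatase, for all members and for all genes on the array, with the number of genes tested under each name. The MAP kinase phosphatases reach 66.7% lower and 0% higher, the receptors 23.5% lower and 17.6% higher, and all genes 12.2% lower and 13.1% higher.

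The 6 MAP kinase phosphatases that were lower span all branches of the family, so the sequence just before their start sites is shown. RefSeq promoters (GRCm38.p6) were found for Dusp1, Dusp2, Dusp6 and Dusp10 among those that were lower and for Dusp7, Dusp8 and Dusp16 among those not called. The 250 bases before the start of transcription are given 5′ to 3′ on the gene's strand. Capitals mark the CRE half-site TGACG (the full cyclic AMP response element TGACGTCA contains it on both strands), the GC box GGGCGG and the E-box CACGTG, each on either strand and joined where they touch.
Dusp1, chr17:26508473-26508722, minus strand: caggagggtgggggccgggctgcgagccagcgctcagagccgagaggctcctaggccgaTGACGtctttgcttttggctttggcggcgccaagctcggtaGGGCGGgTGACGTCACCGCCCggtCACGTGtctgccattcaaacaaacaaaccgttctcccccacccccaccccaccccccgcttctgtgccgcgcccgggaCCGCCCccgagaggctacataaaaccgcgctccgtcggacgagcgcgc
Dusp2, chr2:127335909-127336158, plus strand: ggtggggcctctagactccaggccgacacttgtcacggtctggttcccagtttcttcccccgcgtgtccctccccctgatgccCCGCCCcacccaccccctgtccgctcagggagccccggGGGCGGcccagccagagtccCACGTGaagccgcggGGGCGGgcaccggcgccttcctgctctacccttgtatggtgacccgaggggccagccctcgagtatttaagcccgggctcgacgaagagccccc
Dusp6, chr10:99262981-99263230, plus strand: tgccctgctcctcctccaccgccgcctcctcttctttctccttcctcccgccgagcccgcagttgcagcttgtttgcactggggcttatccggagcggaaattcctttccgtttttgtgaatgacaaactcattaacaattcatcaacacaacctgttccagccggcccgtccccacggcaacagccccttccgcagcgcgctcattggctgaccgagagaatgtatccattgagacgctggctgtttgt
Dusp10, chr1:184034131-184034380, plus strand: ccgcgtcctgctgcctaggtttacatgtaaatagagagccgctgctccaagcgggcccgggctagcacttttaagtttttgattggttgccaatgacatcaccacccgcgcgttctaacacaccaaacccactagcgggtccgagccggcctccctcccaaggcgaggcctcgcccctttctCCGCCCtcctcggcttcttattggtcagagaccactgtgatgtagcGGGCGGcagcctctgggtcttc
Dusp8, chr7:142095285-142095534, minus strand: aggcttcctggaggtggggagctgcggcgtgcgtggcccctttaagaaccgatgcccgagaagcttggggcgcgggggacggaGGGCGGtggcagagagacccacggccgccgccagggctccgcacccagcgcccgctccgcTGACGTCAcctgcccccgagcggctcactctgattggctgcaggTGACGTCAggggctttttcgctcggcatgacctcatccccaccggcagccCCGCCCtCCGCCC
A full CRE stood in Dusp1 and, in 2 copies, in Dusp8, which was not called, and in none of the other 5 windows. Among all 32851 RefSeq windows of the same length, 1.55% hold a full CRE, 17.8% the half-site, 32.7% the GC box and 6.02% the E-box. The GC box was in 3 of the 4 lower genes and in 2 of the 3 not called, beside 33 of all 47 members with a promoter. The half-site was in 1 of the 4 lower genes and in 2 of the 3 not called, beside 19 of the 47 members. Some of the 47 have several windows. The E-box was in Dusp1 and Dusp2 and in none of the 3 not called. Neither the AP-1 site TGANTCA (6.75% of all windows), the ETS site CCGGAAG (6.91%), TATAAA (12.4%) nor a CArG box (1.47%) was in any of the 7 windows, and the Dusp6 window held none of the 8 motifs searched. These are letter matches only. No motif was common to the 4 lower genes.

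Dusp1, Dusp2 and Dusp4 encode nuclear MAP kinase phosphatases, which are immediate-early or early genes of growth factor stimulation. Dusp5, another MAP kinase phosphatase, was not analysed here, so this group is not complete. Dusp1 signals were 15060, 15660, 17620 and 20610 in STMN1-/- RNA and 27530, 34830, 27650 and 32900 in STMN1+/+ RNA on replicates 1 to 4. No STMN1-/- value reached the lowest STMN1+/+ value, and the log2 ratio was -0.84 ± 0.10 (1.79-fold lower, limma adjusted p = 0.00708). Dusp2 had signals of 620.5, 700.9, 834.1 and 906.8 against 951.4, 1229, 1105 and 1247, also without overlap, with a log2 ratio of -0.57 ± 0.09 (1.49-fold lower, limma adjusted p = 0.012). Dusp4 was read by 2 probes, both called. The brighter gave 22710, 22710, 23380 and 27190 against 29190, 32280, 28700 and 32360, and its log2 ratio was -0.35 ± 0.07 (limma adjusted p = 0.0218). The other Dusp4 probe gave 5069, 4915, 5114 and 5372 against 7273, 7567, 7145 and 7930, a log2 ratio of -0.55 ± 0.06 (limma adjusted p = 0.00438). All 3 of these genes were thus lower on every array.

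Dusp6, Dusp7 and Dusp9 encode cytoplasmic phosphatases that act mainly on ERK, and Dusp6 is the classical feedback target of that kinase. Dusp6 signals were 43100, 45300, 48490 and 51900 in STMN1-/- RNA and 66110, 69780, 76890 and 88940 in STMN1+/+ RNA, and the groups did not overlap. Its log2 ratio of -0.67 ± 0.06 (1.59-fold lower, limma adjusted p = 0.00286) came from 4 arrays that lay between -0.78 and -0.62. The brighter Dusp9 probe gave 4032, 4069, 3326 and 3705 against 5541, 5531, 5906 and 6767, a log2 ratio of -0.65 ± 0.10 (limma adjusted p = 0.0134). The second Dusp9 probe was not called, and its arrays split by dye, with 0.24 and 0.02 where STMN1-/- RNA was in Cy3 and -0.61 and -0.54 where it was in Cy5. Dusp7 had values on 3 arrays only, of 52150, 68940 and 53480 against 49680, 53590 and 60330 on replicates 1, 2 and 4, and a log2 ratio of 0.09 ± 0.13 (limma adjusted p = 0.675). The ERK-directed enzymes therefore divided, with Dusp6 and Dusp9 lower and Dusp7 on both sides of 0.

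Dusp8, Dusp10 and Dusp16 encode the enzymes that favour JNK and p38. Dusp10 showed the lowest log2 ratio of the MAP kinase phosphatases, with signals of 1925, 2387, 2769 and 2665 in STMN1-/- RNA against 4661, 5519, 4868 and 4275 in STMN1+/+ RNA. The groups did not overlap, and the log2 ratio was -0.995 ± 0.12 (1.99-fold lower, limma adjusted p = 0.00719). It was -1.24 on average where STMN1-/- RNA was in Cy3 and -0.75 where it was in Cy5. Dusp8 was 0.20 ± 0.12 (limma adjusted p = 0.296) with arrays from -0.15 to 0.46. The 2 bright Dusp16 probes had log2 ratios of -0.02 and 0.16 and were not called. The remaining Dusp16 probe, a dim one, above background in STMN1-/- RNA on 1 of 4 arrays, stood at -0.69 ± 0.18 (limma adjusted p = 0.0545). Of the JNK and p38 group, only Dusp10 was thus called.

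**Figure D2:**
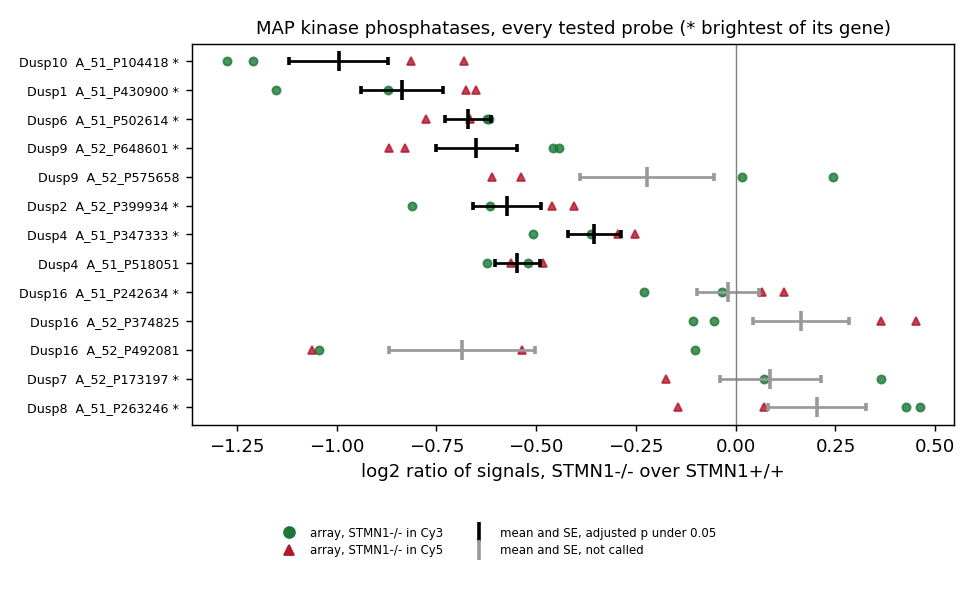
Each row is a probe of a MAP kinase phosphatase, the horizontal axis is the log2 ratio of STMN1-/- over STMN1+/+ signals, green circles are the 2 arrays with STMN1-/- RNA in Cy3 and red triangles those with it in Cy5, and bars are the fitted mean and SE, black where called. The probes of Dusp10, Dusp1, Dusp6, Dusp2 and Dusp4 and the brighter Dusp9 probe have all 4 arrays below 0, whereas those of Dusp7 and Dusp8 lie on both sides.

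The median log2 ratio over the 9 MAP kinase phosphatases was -0.57, and taken per array it was -0.46, -0.51, -0.53 and -0.46, beside 0.00 over all genes. It was -0.41 after normexp background correction, with 4 of the genes called (Dusp1, Dusp6, Dusp9 and Dusp10). The methods' t-test, a test of each probe with its own spread, called 3 (Dusp1, Dusp6 and Dusp10). In these fits 4.12% and 6.81% of all probes were lower, beside 11.1% in the main fit. Dusp1, Dusp6 and Dusp10 were called lower under all 13 alternative settings, Dusp2 and Dusp9 under 10 of 13 and the brighter probe of Dusp4 under 6 of 13. The call of Dusp2 was lost without replicate 1 and after normexp correction, where its log2 ratio was -0.26, that of Dusp9 without replicate 3 or 4 and that of the brighter Dusp4 probe with any 1 array left out.

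Genes that ERK signaling induces, which report on the pathway that several of these phosphatases restrain, were read from a list of 16. Of these 5 were lower and 2 higher, with a median log2 ratio of -0.19, beside 12.2% lower and 13.1% higher among all genes. Phlda1 was lower by the widest margin, at -1.09 ± 0.06 (limma adjusted p = 0.000985), followed by the transcription factor Myc at -0.77 ± 0.06, the AP-1 subunit Fosl1 at -0.77 ± 0.07 and the early response gene Ier3 at -0.72 ± 0.06. Cyclin D1 (Ccnd1) was lower too, at -0.62 ± 0.05. Spry1 and Spred1, inhibitors of the Ras to ERK route, were higher at 0.29 ± 0.06 and 0.31 ± 0.07. Spry2 (-0.39 ± 0.11), Etv4 (-0.42 ± 0.13), Egr1 (0.33 ± 0.13) and Fos (-0.12 ± 0.12) were not called. The list therefore held members of both directions, and no higher call was left when any 1 array was left out (limma, adjusted p of 0.05), and the lower calls then numbered 5 each time.

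Of 19 tested MAP kinase and MAP kinase kinase genes, which encode the substrates of these phosphatases and their activators, 3 were higher and 5 lower, with a median of 0.03, again beside 13.1% higher and 12.2% lower among all genes. The p38 genes went apart, with Mapk13 lower at -1.07 ± 0.07 (limma adjusted p = 0.00141), Mapk14 lower at -0.25 ± 0.06 and Mapk11 higher at 0.55 ± 0.06. The p38 activators Map2k3 (-0.45 ± 0.06) and Map2k6 (-0.36 ± 0.08) were lower. The ERK1 gene Mapk3 was not called, at 0.12 ± 0.10. With any 1 array left out, 1 higher call and 2 lower calls were left.

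The log2 ratios of the receptor-type enzymes ran from -0.96 to 0.99 by brightest probe. Their median was 0.20, and it was 0.03 without replicate 4. Taken per array, the median was -0.02, -0.05, 0.14 and 0.08 on replicates 1 to 4, on both sides of 0. Ptpre and Ptpra are close relatives with short, heavily glycosylated extracellular parts, and both can activate Src-family kinases. Ptpre was lower and Ptpra higher. Ptpre, the receptor that was lowest, was read by 2 probes, and the start of each is shown because they lie in separate parts of the gene (probe positions are those of the array file, build mm7, and sequences are the first 30 of 60 bases, 5′ to 3′).
Ptpre probe A_51_P181772, chr7:132086536-132088139, plus strand: tgtgaagagcttaagacttcagagaccaca
Ptpre probe A_52_P235319, chr7:132090894-132090953, plus strand: tttaaatgagcctgatacctgtgtttcagc
The first spans an intron in that build, since its 60 bases cover a longer interval. It gave 5525, 5525, 5534 and 5470 in STMN1-/- RNA against 11520, 10450, 10400 and 10640 in STMN1+/+ RNA, a log2 ratio of -0.96 ± 0.06 (1.95-fold lower, limma adjusted p = 0.00122). The second gave 2556, 2644, 2653 and 2638 against 4570, 4751, 4760 and 5037, a log2 ratio of -0.87 ± 0.05 (limma adjusted p = 0.00131). Neither overlapped between the genotypes, and both were called under all 13 alternative settings, the second at -0.56 after normexp correction. Ptpra signals were 68030, 66340, 76170 and 85530 against 59460, 55690, 62610 and 67280. Its log2 ratio of 0.27 ± 0.06 (limma adjusted p = 0.0294) came from a higher value on every array, although the ranges of the groups overlapped, and the call was lost when any 1 array was left out, with an adjusted p of 0.0738 to 0.113.

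Ptprs, Ptprd and Ptprf form the LAR family, whose immunoglobulin-like and fibronectin domains bind proteoglycans and synaptic or matrix partners. Ptprs was higher with 2 probes.
Ptprs probe A_51_P419726, chr17:54570745-54570804, minus strand: aactgaggtctctctttgtaggagagtggg
Ptprs probe A_52_P90747, chr17:54576979-54577038, minus strand: atacggcttcatccaggtcaccctactaga
The brighter gave 133200, 129500, 117000 and 121200 in STMN1-/- RNA against 77440, 71220, 69950 and 73430 in STMN1+/+ RNA, far apart on every array, and a log2 ratio of 0.78 ± 0.06 (1.71-fold higher, limma adjusted p = 0.00186). The dimmer gave 975.4, 1022, 959.4 and 1066 against 743, 784.1, 832.3 and 881.1, a log2 ratio of 0.31 ± 0.06 (limma adjusted p = 0.0245). The probes share the direction and differ in size. The 3 probes of Ptprd stood at 0.17 to 0.20 and, with the same sign on every array, were not called (limma adjusted p = 0.0815 to 0.115). Those of Ptprf stood at -0.10, -0.08 and 0.12 and were not called.

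Ptprr encodes a phosphatase that holds ERK through a kinase interaction motif, and its 3 probes did not give 1 picture.
Ptprr probe A_51_P443976, chr10:115782664-115782723, plus strand: cctcacatttctaaaagacctccttcctca
Ptprr probe A_52_P628445, chr10:115781829-115781888, plus strand: actgattgtggaagatctggcaacatgaaa
Ptprr probe A_52_P411280, chr10:115621124-115621183, plus strand: agatagagatgtcccaatctaaacagtagc
The first gave 417.8, 487.7, 540.7 and 515.1 in STMN1-/- RNA against 226.9, 250.6, 213.1 and 298.5 in STMN1+/+ RNA, without overlap, and a log2 ratio of 0.99 ± 0.11 (1.99-fold higher, limma adjusted p = 0.00497). The second, less than 1 kb away in mm7, was above background in STMN1-/- RNA on 1 array and in STMN1+/+ RNA on 0, with 107.5, 147.6, 140.2 and 168.6 against 62.95, 68.57, 70.72 and 77.21. The third, the farthest upstream of the 3, had a log2 ratio of 0.05 ± 0.11 and was above background on 0 STMN1-/- arrays and 1 STMN1+/+ array. The second probe entered the test through the STMN1-/- side alone, so its values are a description. All Ptprr signals are low, and after normexp correction the log2 ratio was 0.32 for the first probe (limma adjusted p = 0.0906) and 0.08 for the second. The other genes with a kinase interaction motif, Ptpn5 and Ptpn7, were at -0.08 ± 0.15 and 0.10 ± 0.09.

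Ptprj and Ptprb belong to the group whose extracellular part is made of fibronectin repeats. Ptprj (also DEP-1), which dephosphorylates growth factor receptors, gave 691.6, 757.2, 845.2 and 979.2 in STMN1-/- RNA against 1216, 1387, 1183 and 1398 in STMN1+/+ RNA. The groups did not overlap, and the log2 ratio was -0.67 ± 0.09 (limma adjusted p = 0.0095). The second Ptprj probe, above background on 0 STMN1-/- and 2 STMN1+/+ arrays, was not called at -0.04 ± 0.57 (limma adjusted p = 0.971). Its arrays ran from -1.50 to 1.91, below 0 where STMN1-/- RNA was in Cy3 and above 0 where it was in Cy5. Ptprb (also VE-PTP), best known from endothelium, gave 3189, 3408, 3092 and 3376 against 5125, 5913, 4557 and 4673, and a log2 ratio of -0.63 ± 0.07 (1.54-fold lower, limma adjusted p = 0.00659). Its second probe, above background on 0 STMN1-/- arrays and 1 STMN1+/+ array, gave 81.23, 63.83, 48.26 and 28.87 against 95.6, 152.5, 91.89 and 114.4 and entered the test through the STMN1+/+ side alone, so these values are a description. After normexp correction the log2 ratios were -0.38 and -0.09 for these Ptprb probes (limma adjusted p = 0.0454 for the first), and -0.28 for Ptprj, which was then not called (limma adjusted p = 0.0751). Endothelial markers were sparse, since Pecam1, Cdh5 and Tie1 were too dim to be tested. Kdr, the VEGF receptor on the same list, was lower at -0.72 ± 0.06 (limma adjusted p = 0.00287), while Tek at 0.25 ± 0.26 and Esam at -0.51 ± 0.16 were not called (limma adjusted p = 0.54 and 0.0755). The summed signal of the 3 endothelial markers tested, mostly that of Kdr, was 1380 to 1728 in STMN1-/- RNA and 2129 to 2435 in STMN1+/+ RNA. Its part in the Ptprb result was not tested. Ptpro, of the same group, was not called at -0.29 ± 0.13.

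Ptprk, Ptprm, Ptprt and Ptpru form the group that binds its own kind between cells. Ptprk was lower with 3 of 4 probes. The brightest gave 20270, 24800, 19280 and 22190 in STMN1-/- RNA against 26770, 27580, 23590 and 25470 in STMN1+/+ RNA, lower on each array though the ranges overlap, with a log2 ratio of -0.26 ± 0.07 (limma adjusted p = 0.0479). The second gave -0.38 ± 0.07 (limma adjusted p = 0.0182). The third gave 62.28, 106.2, 204.5 and 136.6 against 193.7, 232, 266.8 and 232.2 and a log2 ratio of -0.98 ± 0.21 (limma adjusted p = 0.0311), with 1 STMN1-/- array above background. The brightest probe's call was lost with any 1 array left out, with an adjusted p of 0.0976 to 0.147, and the dim one's held in 1 of those 4 fits. After normexp correction the dim probe stood at -0.17 and was not called (limma adjusted p = 0.107). Ptprm (0.28 ± 0.08), Ptpru (0.55 ± 0.18) and Ptprt (-0.53 ± 0.26) were not called.

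Several receptors had log2 ratios above 0 without a call, and their arrays went with dye. Ptpru averaged 0.92 where STMN1-/- RNA was in Cy3 and 0.19 where it was in Cy5, Ptprn (IA-2, a catalytically silent protein of secretory granules) 0.79 and 0.18, and Ptprv 0.64 and 0.18. With a dye effect as a second coefficient in the fit, 8 receptors were higher in place of 3, the added genes being Ptprd, Ptprm, Ptprn, Ptpru and Ptprv, while the same fit called 19.3% of all probes higher and 19.3% lower. The lower receptors were the same 4 genes in that fit (Ptprb, Ptpre, Ptprj and Ptprk).

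Ptprz1, a chondroitin sulfate proteoglycan of glia and their precursors that also binds pleiotrophin, had the brightest probe of any member. This probe gave 1881000, 1670000, 2220000 and 2786000 in STMN1-/- RNA against 1908000, 2321000, 1468000 and 1450000 in STMN1+/+ RNA, so the sign turned with the dye, at -0.25 in Cy3 and 0.77 in Cy5. Its log2 ratio of 0.26 ± 0.25 was not called (limma adjusted p = 0.498). A second probe gave 4572, 4773, 4313 and 4483 against 3350, 3580, 3228 and 3758, without overlap, and a log2 ratio of 0.38 ± 0.06 (limma adjusted p = 0.0139), and the other stood at -0.04 ± 0.07. In this order the 3 probes had mean signals of 2100000, 4532 and 315.9 in STMN1-/- RNA. Whether the brightest reads Ptprz1 RNA was not tested. Of 7 neural and glial markers tested, 5 were lower, among them S100b at -1.13 ± 0.10 and Sox2, which was not above background in STMN1-/- RNA, and Tubb3 was higher. Sox2 entered the test through the STMN1+/+ side alone, so its call is a description. The summed signal of the 7 markers was 40090 to 44700 in STMN1-/- RNA and 49230 to 53460 in STMN1+/+ RNA. Most of it came from Tubb3, which was higher, and Nes, which was lower. Gfap and Snap25 were dim on all arrays, and the part of these markers in the phosphatase results was not tested.

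**Figure D3:**
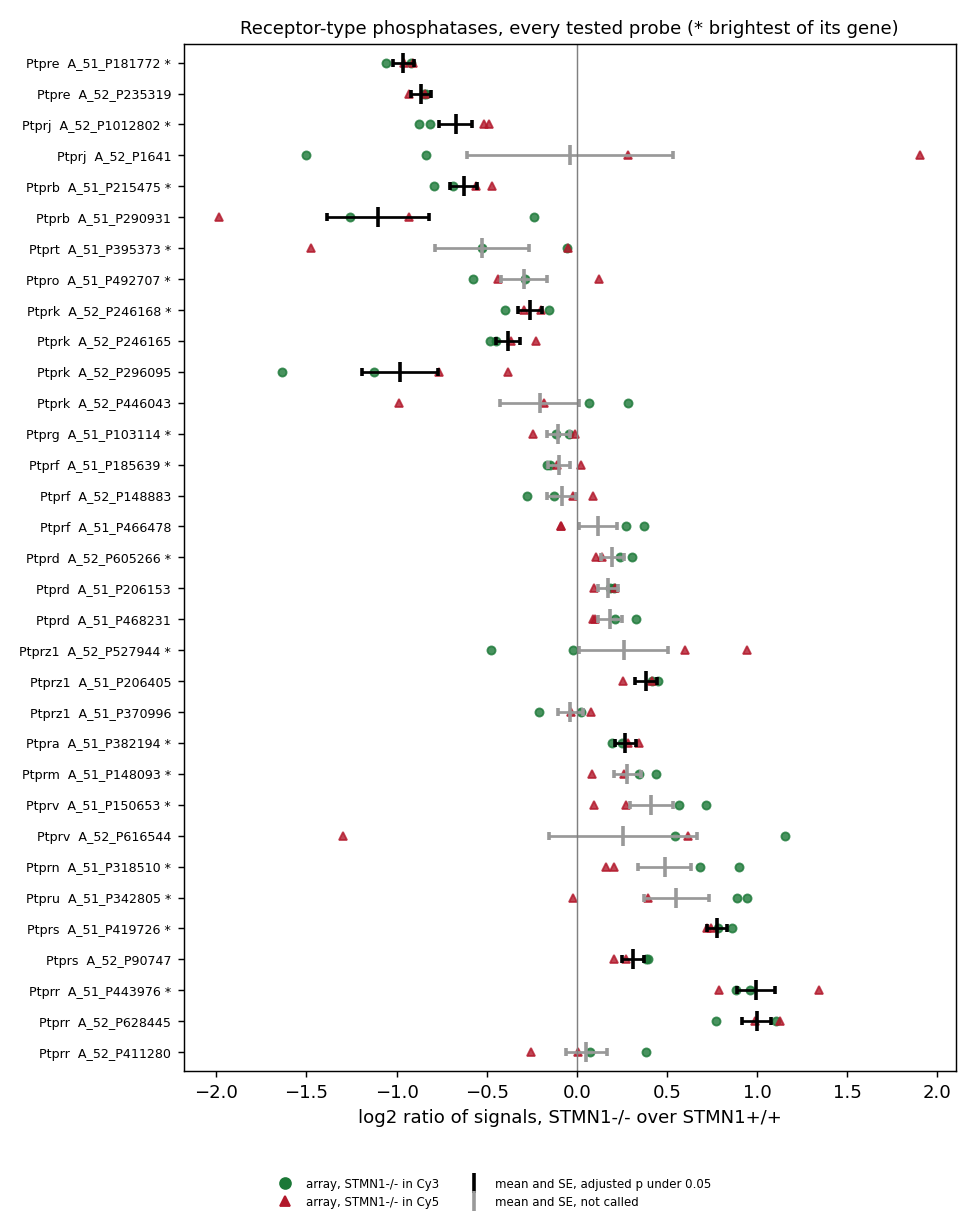
Each row is a probe of a receptor-type phosphatase, ordered by the log2 ratio of the gene's brightest probe, with arrays as green circles (STMN1-/- RNA in Cy3) and red triangles (in Cy5) and the fitted mean and SE as bars, black where called. Both Ptpre probes sit near -0.9 and both Ptprs probes above 0 with little spread, while the brightest Ptprz1 probe runs from -0.47 to 0.94 by dye.

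The cytosolic enzymes had log2 ratios from -0.45 to 0.18 by brightest probe, with a median of -0.01, while 7 of their 25 tested probes were lower. The brightest was Ptpn11 (SHP2), the SH2-domain phosphatase that relays growth factor signals to Ras, with signals of 191600, 209300, 196200 and 218700 in STMN1-/- RNA and 230500, 210100, 181000 and 196600 in STMN1+/+ RNA. The groups overlapped, and the log2 ratio was 0.00 ± 0.09 (limma adjusted p = 0.996). Ptpn1 (PTP1B, the insulin receptor phosphatase of the endoplasmic reticulum) stood at 0.04 ± 0.06, Ptpn2 at -0.01 ± 0.07 and Ptpn12 (PTP-PEST, which acts on p130Cas) at -0.03 ± 0.06, none of them called.

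The cytosolic genes that were called, Ptpn14 and Ptpn21, are the closest pair among the enzymes with a FERM domain, which binds membrane and cytoskeletal proteins. Ptpn14 was lower with all 4 of its probes. The probe with the lowest log2 ratio gave 5526, 5043, 4467 and 5670 in STMN1-/- RNA against 8652, 7428, 6948 and 8216 in STMN1+/+ RNA, without overlap, and -0.59 ± 0.06 (1.51-fold lower, limma adjusted p = 0.0034). The other 3 stood at -0.34, -0.29 and -0.37 (limma adjusted p = 0.0153, 0.0302 and 0.0281). Ptpn21 was lower with both of its probes, at -0.26 ± 0.05 and -0.44 ± 0.06 (limma adjusted p = 0.0257 and 0.0103). Ptpn13, which adds PDZ domains to the FERM domain, was lower by its dimmer probe (-0.28 ± 0.07, limma adjusted p = 0.0374) and not called by its brighter one (-0.45 ± 0.13, limma adjusted p = 0.0635). With any 1 array left out, the brightest probes of Ptpn14 and Ptpn21 were not called (limma adjusted p = 0.0588 to 0.0687 and 0.0864 to 0.0998). The Ptpn14 probe with the lowest log2 ratio was called each time. After normexp correction no cytosolic gene was called by its brightest probe, while that Ptpn14 probe was called at -0.47 (limma adjusted p = 0.0204). The remaining FERM enzymes Ptpn3 and Ptpn4 were at 0.07 ± 0.11 and 0.08 ± 0.09.

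The PRL genes had log2 ratios below 0 by brightest probe, and 1 of the 3 was called. Ptp4a2, the brightest, gave 124100, 140300, 137000 and 156500 in STMN1-/- RNA against 162200, 173800, 147800 and 162000 in STMN1+/+ RNA, with overlap, and -0.21 ± 0.08 (limma adjusted p = 0.121). Ptp4a1 was called by its brightest probe at -0.39 ± 0.07 (limma adjusted p = 0.0201), and its other 3 probes, from -0.38 to -0.10, were not. The called probe and another 2 of the 4 were placed on chromosome 19 in the array file, while RefSeq has Ptp4a1 on chromosome 1, so these 3 probes are uncertain. The probe placed on chromosome 1, on the gene's strand, stood at -0.10 ± 0.06 and was not called (limma adjusted p = 0.313). The Ptp4a1 call was lost with any 1 array left out.

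**Figure D4:**
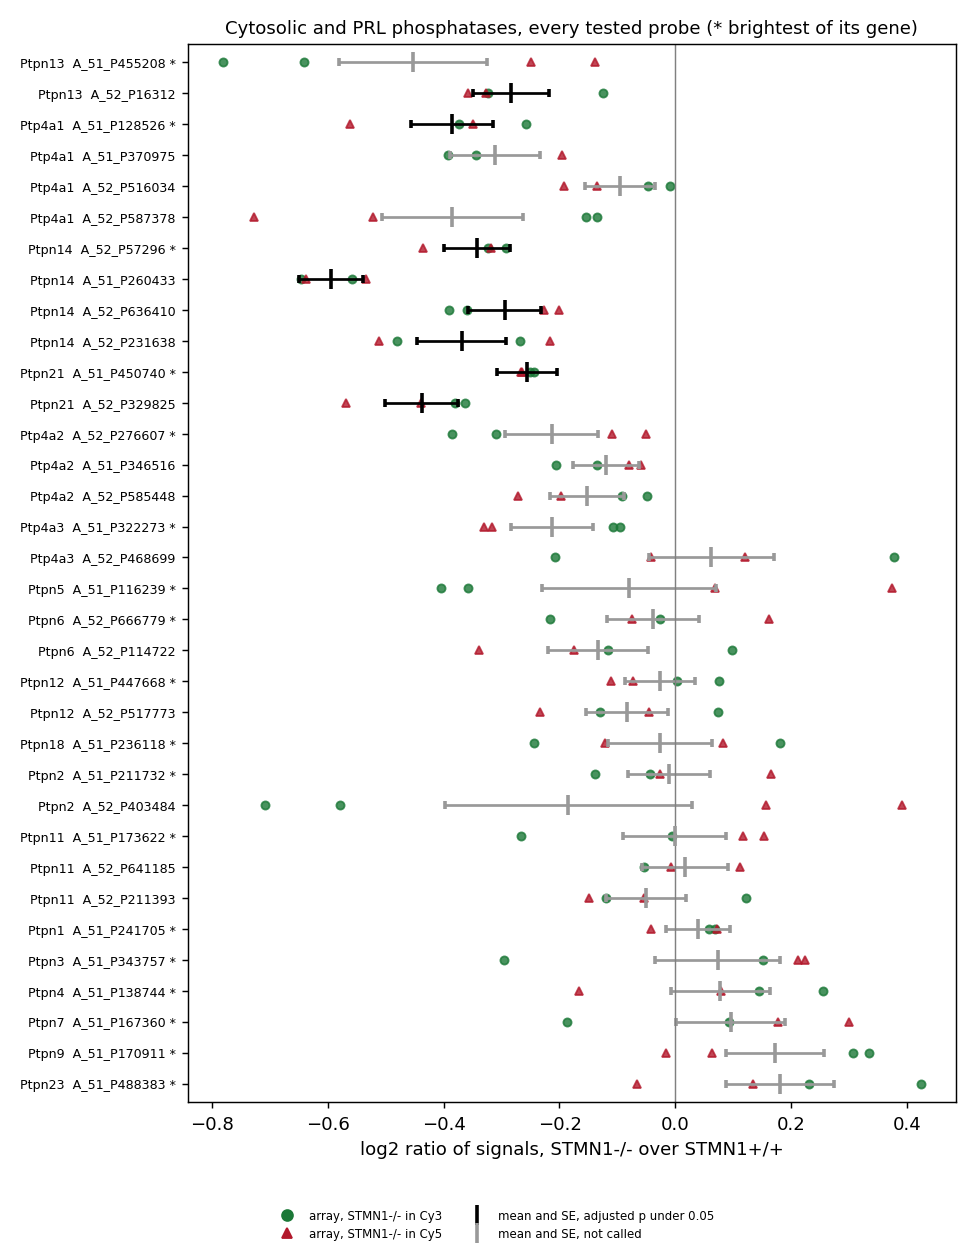
Each row is a probe of a cytosolic or PRL phosphatase, with arrays as green circles (STMN1-/- RNA in Cy3) and red triangles (in Cy5) and the fitted mean and SE as bars, black where called. All 4 Ptpn14 probes and both Ptpn21 probes lie below 0, and the 3 Ptpn11 probes lie about 0.

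Of the 11 atypical enzymes tested, Dusp14, Dusp22 and Dusp26 were called lower by brightest probe, and without Dusp26 this is 2 of 10. Dusp14 gave 4484, 5787, 4906 and 5146 in STMN1-/- RNA against 8373, 7834, 8157 and 9370 in STMN1+/+ RNA, without overlap, and -0.73 ± 0.10 (1.66-fold lower, limma adjusted p = 0.00811), and its second probe stood at -0.42 ± 0.11 (limma adjusted p = 0.0502). Dusp22, a phosphatase linked to JNK signaling, was lower with both probes, at -0.34 ± 0.08 and -0.31 ± 0.05. Dusp26 was above background on 0 STMN1-/- arrays and 1 STMN1+/+ array, with 27.73, 63.22, 22.72 and 23.02 against 60.98, 96.43, 93.65 and 132.8, so it entered the test through the STMN1+/+ side alone and its values are a description. Its log2 ratio was -0.17 after normexp correction. Dusp19 was lower by 2 of its 3 probes. The dimmest of these gave 145.7, 123.6, 127.3 and 133.3 against 182.3, 202.1, 214.3 and 227.8, without overlap, at -0.64 ± 0.10 (limma adjusted p = 0.0119), and the brightest was not called at -0.26 ± 0.09. Dusp14 was called whichever array was left out, Dusp22 in none of those 4 fits, and the dimmest Dusp19 probe in 1 of 4. After normexp correction the log2 ratio was -0.17 for the brightest Dusp22 probe and -0.09 for the dimmest Dusp19 probe, and neither was called (limma adjusted p = 0.114 and 0.264).

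Dusp12 carried the brightest probe of the atypical enzymes, with 58890, 61770, 63640 and 68280 in STMN1-/- RNA against 61230, 59330, 54430 and 61910 in STMN1+/+ RNA and 0.09 ± 0.07 (limma adjusted p = 0.391). A dim second probe was lower at -0.65 ± 0.09 (limma adjusted p = 0.00951), with 224.1, 221.4, 269.2 and 270.5 against 355.5, 416.1, 382.3 and 384.7.
Dusp12 probe A_51_P134776, chr1:170850726-170850782, minus strand: ggttgactgtaacagctgtgggttggtagc
Dusp12 probe A_51_P513369, chr1:170862068-170862127, plus strand: ccatttagagcagcttttccacccaacctt
The dim probe lies on the strand opposite to the gene. Of 80 tested member probes with a known gene strand, 76 lie on it, and the other 4 are this one and the 3 Ptp4a1 probes placed on chromosome 19. After normexp correction its log2 ratio was -0.09 and it was not called (limma adjusted p = 0.24). The remaining atypical enzymes, among them Dusp3 (VHR) at -0.17 ± 0.07 and the RNA phosphatase Dusp11 at -0.09 ± 0.07, were not called.

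**Figure D5:**
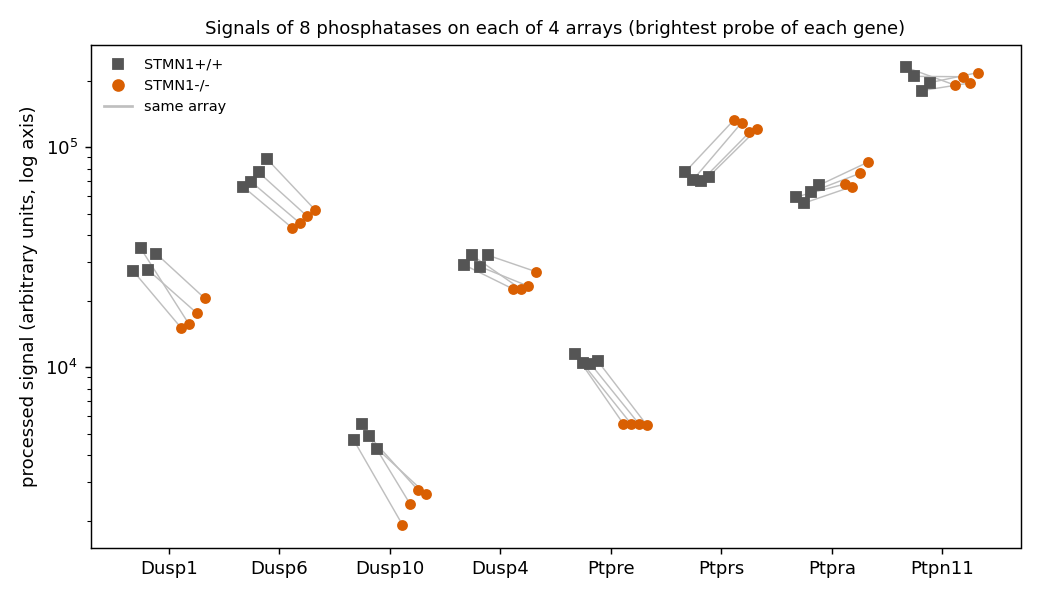
For 8 genes the processed signal of the brightest probe, on a log axis in arbitrary units, is shown in STMN1+/+ RNA (gray squares) and STMN1-/- RNA (orange circles), with a line joining both channels of an array. Lines fall on all 4 arrays for Dusp1, Dusp6, Dusp10, Dusp4 and Ptpre, rise for Ptprs and Ptpra, and go both ways for Ptpn11.

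The tyrosine kinases and adhesion substrates on the other side of these reactions were mostly not called. Of 20 tested, 2 were higher and 3 lower, with a median of -0.03, which is close to the 13.1% higher and 12.2% lower among all genes. The platelet-derived growth factor receptors Pdgfrb and Pdgfra were higher at 1.04 ± 0.05 and 0.70 ± 0.08 (limma adjusted p = 0.000836 and 0.00632), and the p130Cas gene Bcar1, the focal adhesion kinase relative Ptk2b and Kdr were lower, Bcar1 at -0.31 ± 0.08 and Ptk2b at -0.24 ± 0.05. With any 1 array left out, 2 higher calls and 1 lower call were left. Src and Fyn were at 0.07 ± 0.06 and 0.12 ± 0.06.

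The label of embryo fibroblasts was checked on markers. All 9 fibroblast markers were above background in both genotypes, and 8 were higher in STMN1-/- MEFs, such as Col1a1 at 1.28 ± 0.06, while Vim was lower at -0.28 ± 0.07. Their summed signal was 3406000 to 4416000 in STMN1-/- RNA and 1889000 to 2263000 in STMN1+/+ RNA. All 5 tested epithelial markers were lower, with Krt5 at -1.56 ± 0.06 and Cdh1 not above background in STMN1-/- RNA, and their sum was 46240 to 53190 against 60470 to 67970. Cdh1 entered the test through the STMN1+/+ side alone, so its call is a description. Epcam was dim on all arrays. Of 8 tested macrophage markers, 2 were higher and 1 lower, with a sum of 127600 to 149100 against 152100 to 174100 and Itgam not well above background. Most of that sum was Lyz2, which was not called at -0.23 ± 0.07 (limma adjusted p = 0.0858). Aif1 was higher at 1.00 ± 0.10 and Csf1r at 0.28 ± 0.06, while Cd68 was lower at -0.28 ± 0.06. Of 5 muscle markers 1 was higher, and the sums overlapped. Apart from the muscle markers, these sums, which weigh the brightest markers most, did not overlap between the genotypes. Their part in the phosphatase results was not tested, and in bulk RNA fewer cells of a type and less RNA per cell cannot be told apart.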

How the data were processed

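RNA of STMN1-/- and STMN1+/+ MEFs was measured on 4 Agilent 2-color arrays on 1 slide in 1 scan, so neither could be a block. The deposited intensity values are the authors' output of Agilent Feature Extraction 9.5.3.1, which subtracted a detrended background, normalized the dyes by LOWESS and replaced weak signals by surrogates. The deposited log10 ratios (Cy5 over Cy3) derive from them. The authors' lists of changed genes were not used.

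Controls and 472 to 711 outlier spots per array were removed, and repeated spots averaged. Of 41174 probes, 27759 rose well above background in 1 channel or more on at least 1 array, and 27724 of them had a usable spot. Log2 ratios, turned by the dye labels, were set against 0 in limma 3.58.1 (R 4.3.3), two-sided, with Benjamini-Hochberg adjustment. The number of arrays limits the precision. Of 95 member probes with a RefSeq accession, 85 matched, all to the same symbol.

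Every member may be named. Signals on every array are given for members called at a fold of at least 1.5 by any probe and the brightest of each class and, added after the values were seen, for Dusp2, Dusp4, Dusp7, Ptpra and some second probes. Members, classes, lists and tests were chosen with earlier results of these data known. Ptprh, Dusp5, Dusp21 and Dusp28 were not analysed here. The alternatives changed the background correction (normexp, offset 50, then loess), the ratio (the deposited log column), the centring or scale of the arrays, the filter (none, or all 4 arrays), the outlier spots, the dye term, the test (the methods' t-test), the probe per gene, and the arrays, each left out in turn. A count without probes above background in 1 genotype only was added after seeing the data. Sequences and figures used Python 3.11.15, pandas 2.3.3, numpy 2.4.6 and matplotlib 3.10.9.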

Additional observations from a re-analysis of the deposited data

Results flagged for a closer look

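On 5 of 100 member probes with a value on every array, 1 array stood far from the other 3, by a gap that exceeded Dixon's 95% critical value, and chance alone gives this for about 1 in 20. The dimmest Dusp19 probe had -0.32 on replicate 1 against -0.77 to -0.71. Ptpn1 had -0.04 on replicate 3 against 0.06 to 0.07. The dimmer Ptpn13 probe had -0.13 on replicate 1 against -0.36 to -0.32. Ptpn3 had -0.3 on replicate 1 against 0.15 to 0.22. The dimmer Ptpre probe had -0.93 on replicate 4 against -0.85 to -0.84. All values are log2 ratios of STMN1-/- over STMN1+/+, and the cause was not tested.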

How the results depend on the processing

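Among 104 member probes, 30 were lower and 6 higher. Normexp background correction gave 12 lower (11.5%) and 2 higher (1.92%), beside 4.12% lower and 3.57% higher among all probes in that fit. The methods' t-test gave 16 lower (15.4%, beside 6.81%), and the dye coefficient 39 lower (37.5%) and 15 higher (14.4%), beside 19.3% each way. Leaving out each array in turn gave 13 to 17 lower and 3 to 5 higher. The median of the MAP kinase phosphatases, -0.57, was -0.41 with normexp and -0.45 as a mean over each gene's probes, and ranged from -0.59 to -0.49 without 1 array. That of the receptors, 0.2, ranged from 0.03 to 0.18, the lowest without replicate 4. The cytosolic median stayed between -0.01 and 0.03 in the same runs. Of 439 values of single probes under the alternatives, 361 kept their side of the threshold, 77 lost it, 1 gained it and 0 turned sign with a call. The main fit was already paired, because both genotypes share each array and the ratio is taken within it, so no separate paired setting was run. The causes were not tested. Probes near background, as of Ptprr, Dusp26, Dusp12, Dusp19, Ptprb and Ptprk, limit what can be read from them.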
